A study of Mus musculus with 12 samples.

Results

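The plasma membrane calcium pumps and exchangers are the proteins that move calcium out of the cell. A set of 9 genes was taken by symbol from the 55348 genes counted in each library. It holds the 4 PMCA pump genes (Atp2b1, Atp2b2, Atp2b3 and Atp2b4), the 3 genes of the sodium-calcium or NCX exchangers (Slc8a1, Slc8a2 and Slc8a3), and the 2 genes of sodium-calcium-potassium or NCKX exchangers (Slc24a2 and Slc24a3). RNA was sequenced from organs of Corti, which hold the hair cells of the cochlea, at postnatal day 21 in 4 genotypes with 3 libraries each, 12 in all. Wild-type mice carried neither mutation and came from breedings of their own, not from the litters of the mutants. Clrn1-/- mice lacked exon 4 of Clrn1 from the embryo onwards in every tissue, after crossing to PGK-cre mice. Clrn2-/- mice carried the clarinet allele, a nonsense mutation of Clrn2 that is also present in every tissue. Clrn1-/-Clrn2-/- mice, the double mutants, carried both and came from crosses of the single mutants. The number of animals in a library is not given in the sources used here, so p-values measure the spread between libraries of a genotype.

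Calcium enters the stereocilia of hair cells through the mechanotransduction channels and the presynaptic base through voltage-gated channels, and it has to be cleared at both places. PMCA pumps use ATP and bind calcium tightly, while NCX and NCKX exchangers use the sodium gradient, and NCKX the potassium gradient as well, and clear larger loads. Atp2b2 encodes PMCA2, the pump of the outer hair cell bundle, and mice without it are deaf. The study stained this pump and asked how the loss of clarin-1 and clarin-2, membrane proteins of hair cells and auditory neurons, affects calcium handling. It reported more PMCA2 staining in inner hair cells of every clarin mutant at postnatal day 21, in the apical turn alone. That is protein in a single cell type, an unlike measure to the whole-tissue RNA counted here.

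The Atp2b2 transcripts begin at several places, and since a gene count adds all of them, the counts cannot say which start was used. The 3 starts in RefSeq lie on the minus strand of chromosome 6 (GRCm38.p6), and the 100 bases before each are shown because this gene had the one call in the comparisons below. Start 1 lies behind chr6:114042081-114042180, start 2 behind chr6:113934682-113934781 and start 3 behind chr6:113891540-113891639. Capitals mark GGGCGG on either strand.
start 1: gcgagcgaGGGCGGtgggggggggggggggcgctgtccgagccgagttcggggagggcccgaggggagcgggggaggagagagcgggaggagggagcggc
start 2: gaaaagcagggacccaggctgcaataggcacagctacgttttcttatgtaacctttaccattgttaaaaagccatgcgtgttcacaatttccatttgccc
start 3: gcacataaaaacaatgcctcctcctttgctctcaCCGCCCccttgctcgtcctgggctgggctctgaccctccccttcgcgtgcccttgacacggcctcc
The stretch before start 1 is 81% G and C, that before start 2 is 44% and that before start 3 is 63%. GGGCGG stands once before start 1 and once before start 3 and is not in the window of start 2. It is found in 24.7% of 32844 windows of 100 bases before RefSeq starts. TATAAA, searched on both strands, is in none of these 3 windows and in 5.56% of all. The first 50 transcribed bases of start 1 match 0 Gencode transcripts, those of start 2 match 1 Gencode transcript and those of start 3 match 2.

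Libraries held between 30008679 and 41049302 counts on genes, and the 9 genes had between 386 and 23641 counts in a library. All 9 passed the filter on low counts. Clrn1 lay at 23.8 to 28.6 CPM (read counts scaled to the size of the library, with TMM factors) in Wild-type and at 25.8 to 31.5 in Clrn2-/- mice, against 2.69 to 3.04 in Clrn1-/- and 1.77 to 2.71 in the double mutants. Clrn2 lay at 1.89 to 3.24 CPM in Wild-type libraries, at 0.854 to 1.04 CPM in those of Clrn1-/- mice and at 1.04 to 1.38 CPM in those of Clrn2-/- mice, so its RNA level does not separate the single mutants. Double mutant libraries had 0.921 to 1.18 CPM of Clrn2. Hair cell markers were present in every library (12 of 12 genes, 531 to 676 CPM in sum), as were supporting cell markers (4489 to 5094 CPM). Neuron markers summed to 8836 to 14087 CPM and Schwann cell markers to 19386 to 21446 CPM, although the central axis of the cochlea had been removed. Summed markers of 3 other cell types were higher in every double mutant library than in every Wild-type one: fibroblasts and bone (2237 to 2395 against 1555 to 1909 CPM, with 5 of 8 genes higher at an adjusted p of at most 0.05), endothelium (258 to 261 against 213 to 241 CPM, 1 of 6) and macrophages (174 to 206 against 112 to 144 CPM, 6 of 6). Over all genes tested, 37.0% passed in that comparison, in either direction. The hair cell sum was also above Wild-type in every double mutant library (615 to 636 against 539 to 611 CPM, with 5 of 12 genes higher and 3 lower). Xist and 4 genes of the Y chromosome were detected in every library, so each held RNA of both sexes, which bears on Atp2b3, a gene of the X chromosome. None of the 9 genes is on chromosome 3 or 5, where Clrn1 and Clrn2 lie.

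In Wild-type organs of Corti, Slc24a2 and Atp2b2 were the most abundant of these transcripts. Per kilobase of exon, Slc24a2 had 49.0 ± 3.51 CPM (SD, n = 3) and Atp2b2 27.5 ± 0.766 CPM. Atp2b3 followed with 22.0 ± 1.35 CPM per kilobase, and the order went on with Atp2b1 at 8.78 ± 0.162 and Slc24a3 at 6.81 ± 1.39. Lower still were Slc8a3 at 4.17 ± 0.449 CPM per kilobase and Slc8a2 at 2.50 ± 0.0984. The lowest levels were those of Atp2b4 at 1.07 ± 0.248 and Slc8a1 at 0.998 ± 0.161 CPM per kilobase, and this pair of neighbours did not differ beyond its spread. The genes of NCKX2 and PMCA2 thus headed the list, and those of PMCA4 and NCX1 stood last.

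Among all 4 genotypes, 8 of the 9 genes differed at an adjusted p of at most 0.05 in edgeR's quasi-likelihood test over the genotype terms, against 49.9% of the 19052 genes tested. The smallest adjusted p was that of Atp2b2 (4.71e-07), and Atp2b4 alone did not pass (adjusted p = 0.174). Of 63 differences tested (9 genes in 7 comparisons) 29 passed, and 1 of these reached 1.5-fold.

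**Figure D1:**
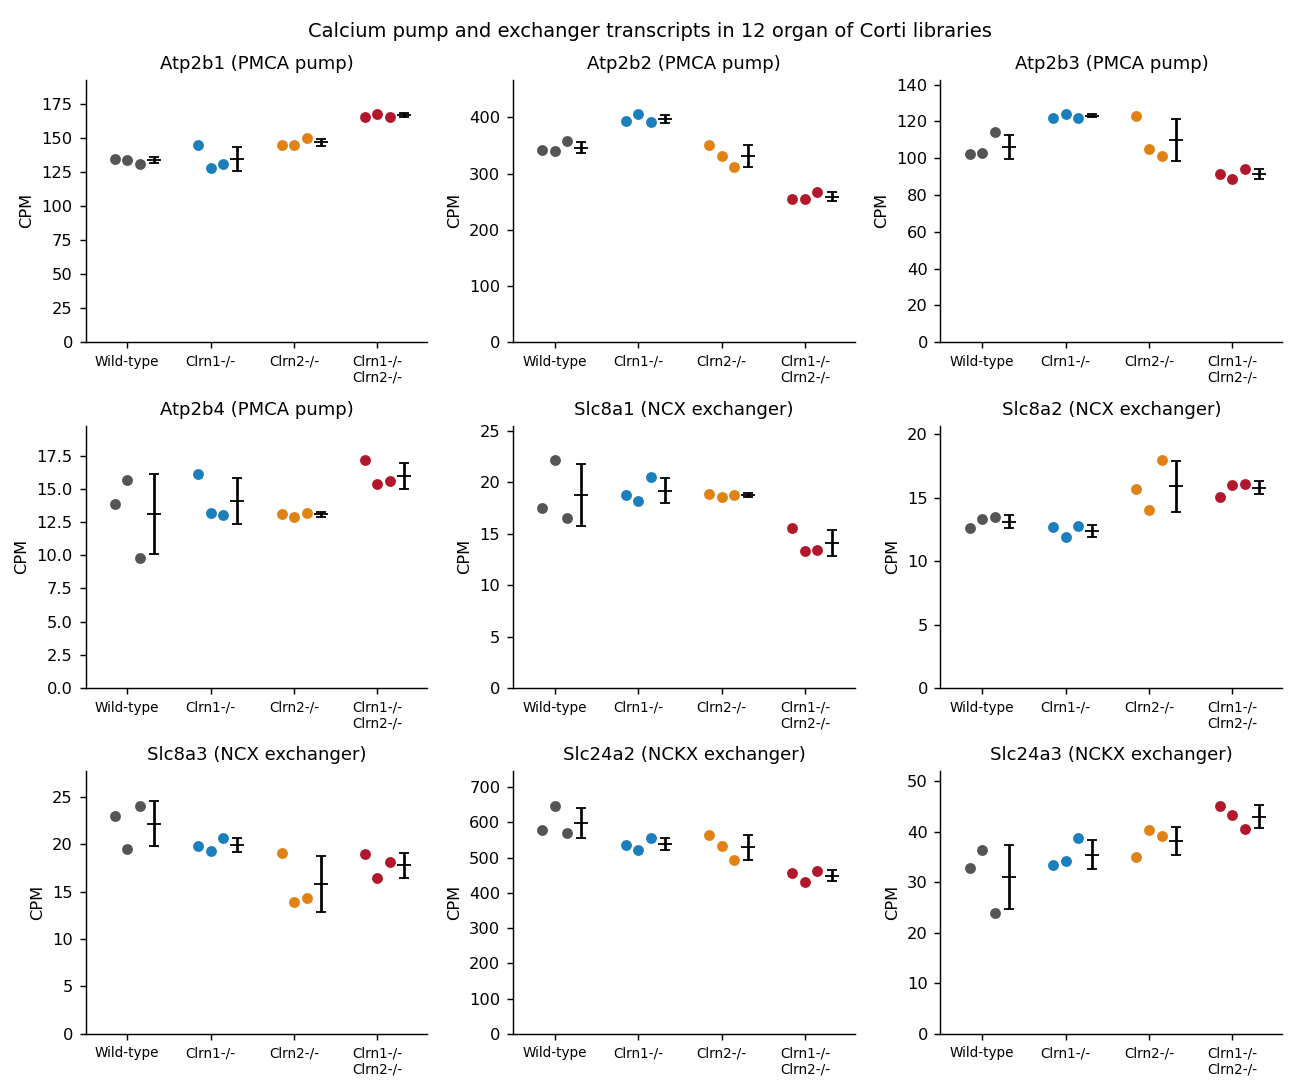
CPM of each of the 9 genes (vertical axis, from 0) in the 12 libraries by genotype, with points for libraries and a black bar for the mean and SD of 3. Atp2b2 lies at 254 to 268 CPM in the double mutants, below every other library, and Atp2b1 at 166 to 168, above every other one.

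Atp2b2 (ENSMUSG00000030302.16, chr6:113743831-114042613, GRCm38, minus strand), which encodes the hair bundle pump PMCA2, had 342, 340 and 358 CPM in the Wild-type libraries. The Clrn1-/- libraries had 393, 406 and 392 CPM, the Clrn2-/- libraries 350, 331 and 311 CPM, and those of the double mutants 254, 255 and 268 CPM. Clrn1-/- was thus the highest genotype without overlap, Clrn2-/- overlapped with Wild-type, and the double mutants were the lowest without overlap. Against Wild-type, Atp2b2 rose by 0.20 on the log2 scale in Clrn1-/- mice (SE 0.0467, adjusted p = 0.00543 in edgeR) and fell by 0.42 in the double mutants (SE 0.0470, adjusted p = 3.62e-06). In Clrn2-/- mice the log2 difference of -0.067 did not pass (95% confidence interval -0.17 to 0.0324, adjusted p = 0.386). From Clrn1-/- to the double mutants the level fell by 0.62 on the log2 scale (95% confidence interval -0.72 to -0.52, adjusted p = 1.49e-07), to 0.652 of the Clrn1-/- level. This was the only difference among these genes that reached 1.5-fold with an adjusted p of at most 0.05. Across the whole tissue, fewer cells of a type and less RNA per cell cannot be told apart, here and for every gene below.

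Atp2b3 (ENSMUSG00000031376.15, chrX:73503086-73571005, plus strand) encodes PMCA3, a pump of the brain with little presence elsewhere. Its mean was highest in Clrn1-/- and lowest in the double mutants, as for Atp2b2, but Clrn2-/- (110 CPM) stood above Wild-type (106 CPM). Its levels were 102, 103 and 114 CPM in Wild-type and 122, 124 and 122 CPM in Clrn1-/- mice. Clrn2-/- libraries had 123, 105 and 101 CPM and the double mutants 91.3, 88.6 and 94.1 CPM. The Clrn1-/- libraries were above all Wild-type ones, the double mutants were below all others, and the Clrn2-/- libraries spread over the range of the other single mutant and Wild-type. Atp2b3 rose by 0.21 on the log2 scale in Clrn1-/- (SE 0.0614, adjusted p = 0.0189 in edgeR) and fell by 0.22 in the double mutants (SE 0.0619, adjusted p = 0.0115). The rise in Clrn1-/- mice did not pass without Wild-type replicate 1 (adjusted p = 0.0645) or 2 (adjusted p = 0.0565).

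Atp2b1 (ENSMUSG00000019943.10, chr10:98914406-99026143, plus strand) encodes PMCA1, which most cells carry and which in hair cells sits in the basolateral membrane. In the double mutants its transcript moved the other way from that of Atp2b2. Wild-type libraries had 135, 134 and 131 CPM and Clrn1-/- libraries 145, 128 and 131 CPM. In Clrn2-/- mice the levels were 145, 145 and 150 CPM, and the double mutants had 166, 168 and 166 CPM. Wild-type and Clrn1-/- overlapped, Clrn2-/- lay above both without overlapping Wild-type, and the double mutants were above all. Atp2b1 rose by 0.32 on the log2 scale in the double mutants (SE 0.0440, adjusted p = 2.99e-05 in edgeR). The marker sums of hair cells, fibroblasts and bone, endothelium and macrophages were also higher in these libraries than in Wild-type. Of 10 supporting cell markers, 7 were higher and 2 lower at an adjusted p of at most 0.05, where 37.0% of all genes passed. The part of any of these in the rise of Atp2b1 and in that of Slc24a3 was not tested. The Atp2b1 log2 difference of 0.14 in Clrn2-/- mice stood just beyond the threshold with edgeR (adjusted p = 0.0501). It passed with limma-voom (0.0494), DESeq2 (0.0286), library size alone (0.0198) and unstranded counts (0.0424), and under none of the other 10 alternatives. In Clrn1-/- mice the 95% confidence interval was -0.0827 to 0.10.

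Atp2b4 (ENSMUSG00000026463.17, chr1:133699457-133801041, minus strand) encodes PMCA4, known from red blood cells and sperm, and was the least abundant pump gene. It had 13.9, 15.7 and 9.77 CPM in Wild-type and 16.1, 13.2 and 13.0 CPM in Clrn1-/- mice. The Clrn2-/- libraries had 13.1, 12.9 and 13.2 CPM, and the double mutants 17.2, 15.4 and 15.6 CPM. The double mutants were high, but Wild-type reached into their range. The log2 difference of 0.29 between the double mutants and Wild-type did not pass (SE 0.13, adjusted p = 0.0902), and without Wild-type replicate 2 it was 0.434 with an adjusted p of 0.0148, against 0.103 with an adjusted p of 0.444 without Wild-type replicate 3. Wild-type replicate 3 was the lowest for Atp2b4 and also for the 8 stria vascularis markers, with 653 CPM in sum against 886 and 994 in the other Wild-type libraries. By the paper's methods, the stria vascularis had been removed. This replicate was also the lowest of Wild-type for markers of fibroblasts and bone (1555 CPM), endothelium (213), macrophages (112), red blood cells (708) and Schwann cells (20241). It was the highest of Wild-type for hair cell (611), supporting cell (5094) and neuron markers (14087). A part of any of these in the spread of Atp2b4 was not tested. The 6 red blood cell markers summed to 708 to 1156 CPM in Wild-type and 285 to 387 CPM in Clrn1-/- mice, without a matching difference in Atp2b4. Atp2b4 shares 6 exon bases with Mir6903 on the same strand.

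Slc24a2 (ENSMUSG00000037996.17, chr4:86983124-87230477, minus strand) encodes NCKX2, an exchanger of neurons and photoreceptors. Its levels were 578, 648 and 569 CPM in Wild-type, and 537, 521 and 555 CPM in Clrn1-/- mice. They were 564, 534 and 493 CPM in Clrn2-/- mice and 456, 431 and 461 CPM in the double mutants. The double mutants were below all other libraries, and each single mutant was below Wild-type without overlap. Slc24a2 fell by 0.41 on the log2 scale in the double mutants (SE 0.0591, adjusted p = 4.38e-05 in edgeR). The log2 differences in Clrn1-/- (-0.15, adjusted p = 0.0646) and Clrn2-/- mice (-0.17, adjusted p = 0.0616) did not pass with edgeR, while with DESeq2 both did (adjusted p = 0.0397 and 0.0259), as they did without Wild-type replicate 3 (0.0343 and 0.033).

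Slc24a3 (ENSMUSG00000063873.10, chr2:145167754-145642166, plus strand) encodes NCKX3, an exchanger of brain and smooth muscle. It had 32.9, 36.3 and 24.0 CPM in Wild-type, and 33.5, 34.3 and 38.8 CPM in Clrn1-/- mice. Levels of 35.0, 40.4 and 39.1 CPM were found in Clrn2-/- mice, and of 45.2, 43.3 and 40.6 CPM in the double mutants. Every double mutant library was above every other one, and the single mutants overlapped with Wild-type. Without Wild-type replicate 2 the log2 differences in Clrn1-/- (0.326, adjusted p = 0.0412) and Clrn2-/- mice (0.431, adjusted p = 0.0185) passed, and without Wild-type replicate 3 they were 0.038 (adjusted p = 0.772) and 0.142 (adjusted p = 0.249). Slc24a3 rose by 0.47 on the log2 scale in the double mutants (95% confidence interval 0.24 to 0.70, adjusted p = 0.00309 in edgeR), the largest difference from Wild-type among the 9 genes in that genotype. It was 0.590, past 1.5-fold, without Wild-type replicate 2 and 0.301 (adjusted p = 0.00607) without Wild-type replicate 3. Wild-type replicate 3, low in several marker sums as given for Atp2b4, was again the lowest library.

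Slc8a1 (ENSMUSG00000054640.15, chr17:81373105-81738377, minus strand) encodes NCX1, the exchanger of heart muscle that many tissues also use. It had 17.5, 22.2 and 16.5 CPM in Wild-type, 18.8, 18.2 and 20.5 CPM in Clrn1-/- and 18.9, 18.6 and 18.8 CPM in Clrn2-/- mice. In the double mutants the levels were 15.6, 13.3 and 13.4 CPM, all below those of the 9 other libraries, which overlapped among themselves. Slc8a1 fell by 0.42 on the log2 scale in the double mutants (SE 0.0980, adjusted p = 0.00326 in edgeR). Its exons share 296 bases with the antisense gene AC122399.1 and 8 with Gm11096, both on the opposite strand, and counting followed the strand of the kit.

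Slc8a2 (ENSMUSG00000030376.8, chr7:16129826-16161063, plus strand) encodes NCX2, an exchanger of brain neurons and glia. Levels in Wild-type were 12.6, 13.3 and 13.5 CPM, and in Clrn1-/- mice 12.7, 11.9 and 12.8 CPM. In Clrn2-/- mice they were 15.7, 14.0 and 18.0 CPM, and in the double mutants 15.1, 16.0 and 16.1 CPM. The genotypes formed a lower pair, Wild-type and Clrn1-/-, and an upper pair with the Clrn2 mutation, with no overlap between the pairs. Slc8a2 rose by 0.27 on the log2 scale in Clrn2-/- (SE 0.0824, adjusted p = 0.0361 in edgeR) and by 0.26 in the double mutants (SE 0.0826, adjusted p = 0.0202). The rise in Clrn2-/- mice did not pass without Wild-type replicate 1 (adjusted p = 0.11) or 2 (0.0624) or without Clrn2-/- replicate 1 (0.0574) or 3 (0.152, at a log2 difference of 0.184). That in the double mutants did not pass without Wild-type replicate 1 (adjusted p = 0.0782) or double mutant replicate 2 (0.0651) or 3 (0.0695). Between the Clrn2-/- and the double mutants the log2 difference had a 95% confidence interval of -0.19 to 0.16.

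Slc8a3 (ENSMUSG00000079055.10, chr12:81197915-81333180, minus strand) encodes NCX3, an exchanger of brain and skeletal muscle, and had its lowest level in Clrn2-/- mice. Wild-type libraries had 23.0, 19.5 and 24.1 CPM, and Clrn1-/- libraries 19.8, 19.3 and 20.7 CPM. The Clrn2-/- libraries had 19.1, 13.9 and 14.3 CPM, and the double mutants 19.0, 16.4 and 18.1 CPM. Replicate 1 of Clrn2-/- stood apart from the other two and came close to the lower end of Clrn1-/- and Wild-type without overlapping them. Slc8a3 fell by 0.49 on the log2 scale in Clrn2-/- (95% confidence interval -0.72 to -0.26, adjusted p = 0.00612 in edgeR) and by 0.32 in the double mutants (SE 0.11, adjusted p = 0.0293). Without Clrn2-/- replicate 1 the log2 difference in that genotype was -0.649, past 1.5-fold. The decrease in the double mutants did not pass without Wild-type replicate 1 (adjusted p = 0.0726) or 3 (0.0853) or without double mutant replicate 2 (0.111) or 3 (0.0521). Of 8 skeletal muscle markers, Myl1 ranged from 2.40 to 42.7 CPM and the other 7 did not exceed 1.44 CPM in any library, and Tnnc2 reached no more than 0.269 CPM.

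Set side by side, the comparisons differed in how many of the 9 genes moved. Counts below are first of genes past an adjusted p of 0.05 and then of calls, which needed a 1.5-fold change as well. In Clrn1-/- against Wild-type, 2 of 9 passed, both higher (Atp2b2 and Atp2b3), against 26.9% of all genes tested, and 0 were called, against 7.22%. In Clrn2-/- against Wild-type, 2 of 9 passed, Slc8a2 higher and Slc8a3 lower, against 14.2%, and 0 were called, against 2.66%. In the double mutants against Wild-type, 8 of 9 passed, against 37.0%, with 3 higher (Atp2b1, Slc8a2 and Slc24a3) and 5 lower (Atp2b2, Atp2b3, Slc8a1, Slc8a3 and Slc24a2), and 0 were called, against 9.90%. Leaving out 1 library of either genotype in turn gave 6 to 9 genes that passed in the double mutants, and 1 to 3 in each single mutant, against Wild-type. At an unadjusted p of at most 0.05 the edgeR counts were 3, 5 and 9 in these 3 comparisons, and limma-voom and DESeq2 also called 0 in each. Genes past an adjusted p of 0.05 numbered 2, 3 and 8 with limma-voom and 3, 5 and 8 with DESeq2. The median size of the log2 change over the 9 genes in the double mutants was 0.320, and over all genes tested it was 0.192. These comparisons share the Wild-type libraries.

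**Figure D2:**
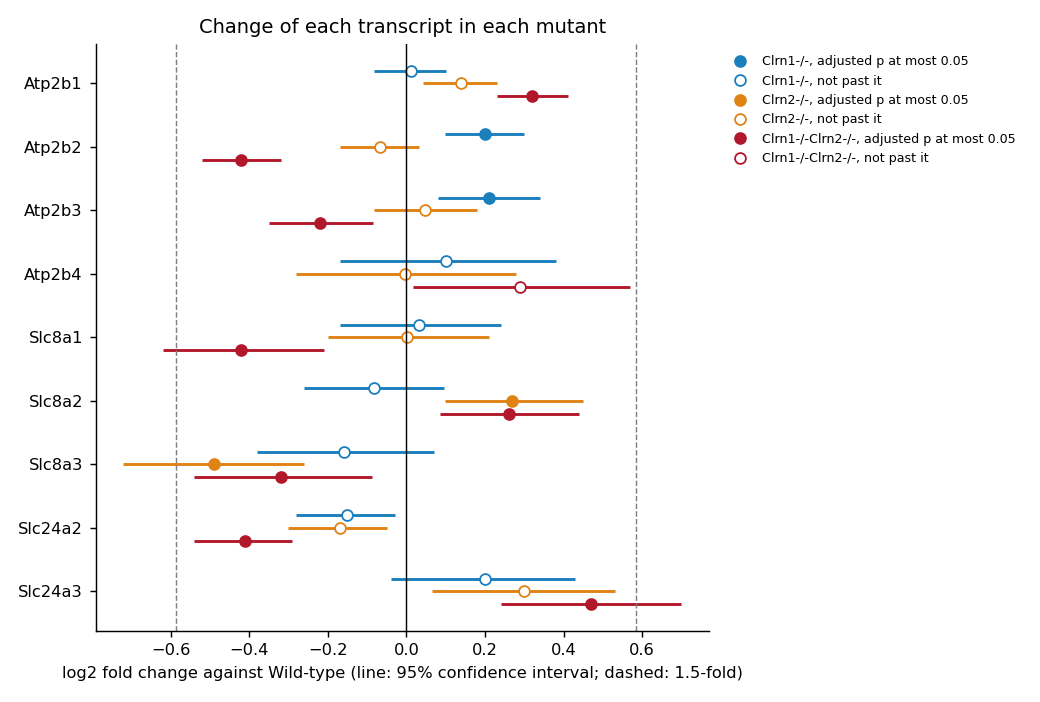
Log2 fold change of each gene against Wild-type (horizontal axis) in Clrn1-/-, Clrn2-/- and double mutant mice, with 95% confidence intervals as lines, filled points where the adjusted p was at most 0.05, and dashed lines at 1.5-fold. In the double mutants 8 of 9 points are filled, 5 of them below 0, and every point lies between the dashed lines.

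Between the mutants, the double mutants differed from each single mutant in most of these genes. Against Clrn1-/-, 6 of 9 passed, against 30.4% of all genes, and Atp2b2 alone was called, against 7.23%. Lower in the double mutants were Atp2b2, Atp2b3 (fell by 0.43 on the log2 scale, adjusted p = 7.32e-05), Slc8a1 (fell by 0.45, adjusted p = 0.00236) and Slc24a2 (fell by 0.26, adjusted p = 0.00318). Higher were Atp2b1 (0.31, adjusted p = 6.25e-05) and Slc8a2 (0.34, adjusted p = 0.00483). Against Clrn2-/-, 5 of 9 passed, against 27.6%, and 0 were called, against 5.10%, with 6 at an unadjusted p of at most 0.05 and 0 calls by limma-voom and DESeq2. There Atp2b2 (fell by 0.35, adjusted p = 5.72e-05), Atp2b3 (fell by 0.26, adjusted p = 0.00490), Slc8a1 (fell by 0.42, adjusted p = 0.00503) and Slc24a2 (fell by 0.24, adjusted p = 0.00682) were lower and Atp2b1 was higher (0.18, adjusted p = 0.00555). Atp2b2, Atp2b3, Slc8a1 and Slc24a2 were therefore below each single mutant, and Atp2b1 above each.

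The single mutants differed from each other in 3 of 9 genes, against 18.5% of all genes, and 0 were called, against 4.73%, with 5 at an unadjusted p of at most 0.05 and 0 calls by limma-voom and DESeq2. Atp2b2 was higher in Clrn1-/- than in Clrn2-/- mice by 0.26 on the log2 scale (adjusted p = 0.00106), and Slc8a3 by 0.33 (adjusted p = 0.0425). For Slc8a3 this did not pass without any single Clrn1-/- replicate or without Clrn2-/- replicate 2 or 3 (adjusted p of 0.0772 to 0.16). Slc8a2 was lower in Clrn1-/- than in Clrn2-/- mice, by a log2 difference of -0.36 (adjusted p = 0.00723).

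The interaction term gives the change in the double mutants minus the sum of the changes in the single mutants. It passed for 3 of 9 genes, against 17.4% of all, and 0 were called, against 5.50%, with 5 at an unadjusted p of at most 0.05 and 0 calls by limma-voom and DESeq2. For Atp2b2 it was -0.55 on the log2 scale (SE 0.0663, adjusted p = 5.14e-05) and for Atp2b3 -0.47 (SE 0.0872, adjusted p = 0.00158), in both cases with a rise in Clrn1-/- mice and a decrease in the double mutants. For Slc8a1 it was -0.45 (SE 0.14, adjusted p = 0.0331), with single mutants close to Wild-type. The term reached 1.5-fold without Clrn2-/- replicate 3 (-0.613) or double mutant replicate 3 (-0.595) for Atp2b2, and without Wild-type replicate 2 (-0.603) for Slc8a1. The Slc8a1 term did not pass in 7 of the 12 fits that each left out 1 library, namely Wild-type replicate 1 or 3, Clrn1-/- replicate 3, Clrn2-/- replicate 1 or 2, or double mutant replicate 2 or 3 (adjusted p of 0.0501 to 0.0750). For Slc24a2, whose log2 differences in the single mutants were -0.15 and -0.17 and in the double mutants -0.41, the interaction had a 95% confidence interval of -0.26 to 0.092, and for Slc24a3 of -0.36 to 0.31.

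Within the families, the make-up of the transcripts shifted in the double mutants. Levels were summed per kilobase of exon, and these sums and shares are descriptions without a test. The 4 pump genes summed to 59.3 ± 1.72 CPM per kilobase (SD, n = 3) in Wild-type and to 51.7 ± 1.03 in the double mutants. The single mutants had 67.0 ± 0.680 CPM per kilobase with Clrn1 mutated and 59.7 ± 3.73 with Clrn2 mutated. The share of Atp2b2 in this sum was 46.3% ± 0.168 in Wild-type and 39.7% ± 0.492 in the double mutants, and that of Atp2b1 was 14.8% ± 0.687 and 21.2% ± 0.577. In the make-up, the share of Atp2b2 was thus lower and that of Atp2b1 higher in the double mutants, while Atp2b3 kept 36.1% to 39.9% in every library. These counts are of the whole tissue and do not place either gene in a cell type. The 3 NCX genes summed to 7.66 ± 0.302 CPM per kilobase in Wild-type and 7.09 ± 0.228 in the double mutants, with Clrn1-/- at 7.12 ± 0.280 and Clrn2-/- at 6.98 ± 0.676. The share of Slc8a2 was 32.6% ± 1.56 in Wild-type and 33.2% ± 0.545 in Clrn1-/-, against 43.3% ± 4.45 in Clrn2-/- mice and 42.3% ± 2.53 in mice with both mutations. The 2 NCKX genes summed to 55.8 ± 4.68 CPM per kilobase in Wild-type and 46.2 ± 1.31 in the double mutants, and the share of Slc24a3 was 12.1% ± 1.72 and 20.4% ± 1.17.

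**Figure D3:**
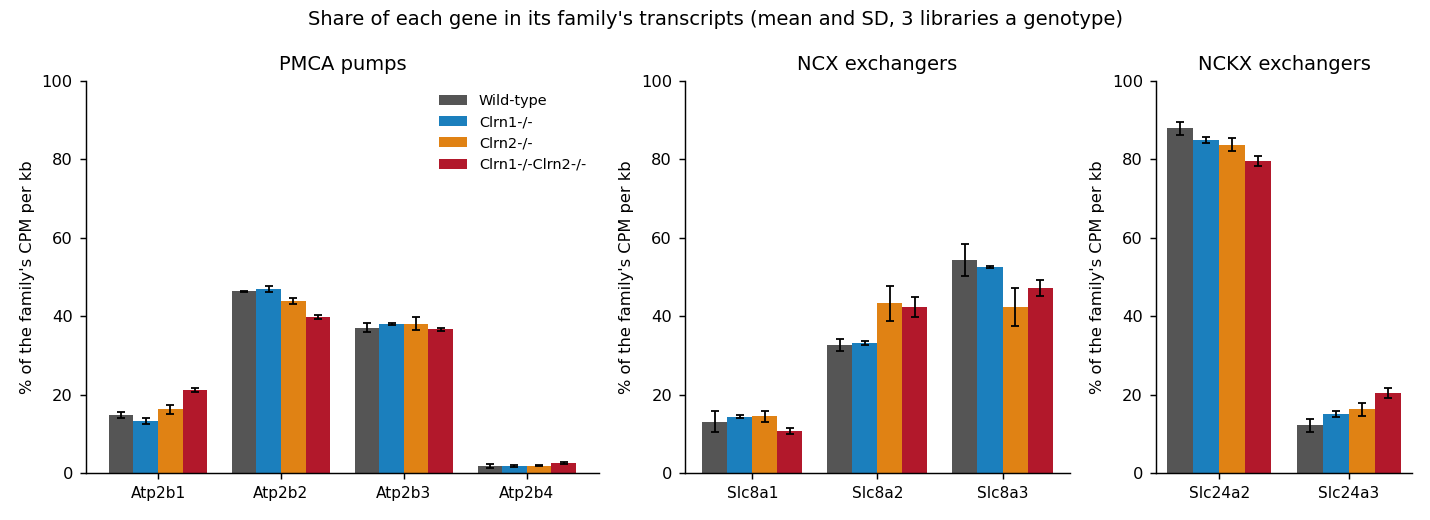
Share of each gene in the summed CPM per kilobase of its family (vertical axis, percent from 0 to 100) by genotype, as bars for the mean of 3 libraries with the SD. In the double mutants Atp2b2 holds 39.7% of the pump transcripts against 46.3% in Wild-type, and Slc24a3 holds 20.4% of the NCKX transcripts against 12.1%.

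Most neuron markers fell in the same libraries in which Atp2b2, Atp2b3, Slc8a1 and Slc24a2 were lowest. Of 14 neuron markers, 9 were lower and 3 higher in the double mutants with an adjusted p of at most 0.05. Over all genes tested, 37.0% passed there in either direction. None of the 14 markers was at 0 in any library. Wild-type libraries had 12806 to 14087 CPM of them in sum, Clrn1-/- libraries 11497 to 12063, Clrn2-/- libraries 10984 to 12770 and double mutant libraries 8836 to 8996 CPM. On the log2 scale the mean sum in the double mutants differed from Wild-type by -0.583, more than any of the 9 genes. Atp2b2 per 1000 CPM of neuron markers was 26.0 ± 0.659 CPM for Wild-type, 33.7 ± 0.985 for Clrn1-/-, 28.3 ± 0.797 for Clrn2-/- and 29.1 ± 0.583 for double mutant libraries (SD, n = 3). On this scale the double mutants (28.6 to 29.8) were above Wild-type (25.4 to 26.7), the reverse of the order in CPM. Atp2b3 likewise had 10.3 ± 0.217 CPM per 1000 in the double mutants and 7.96 ± 0.116 in Wild-type. Slc24a2 had 50.5 ± 1.55 and 45.0 ± 4.50, with overlapping libraries. Slc8a1 had 1.58 ± 0.152 and 1.41 ± 0.263, also with overlap, and Slc8a3 had 2.01 ± 0.144 and 1.67 ± 0.157, without overlap. The part of the neuron RNA in these decreases was not tested beyond these ratios. The hair cell marker sum was 615 to 636 CPM in the double mutants and 539 to 611 CPM in Wild-type. Of the 12 hair cell markers, 5 were higher and 3 lower at an adjusted p of at most 0.05. A part of hair cells in the Atp2b2 decrease was not tested.

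**Figure D4:**
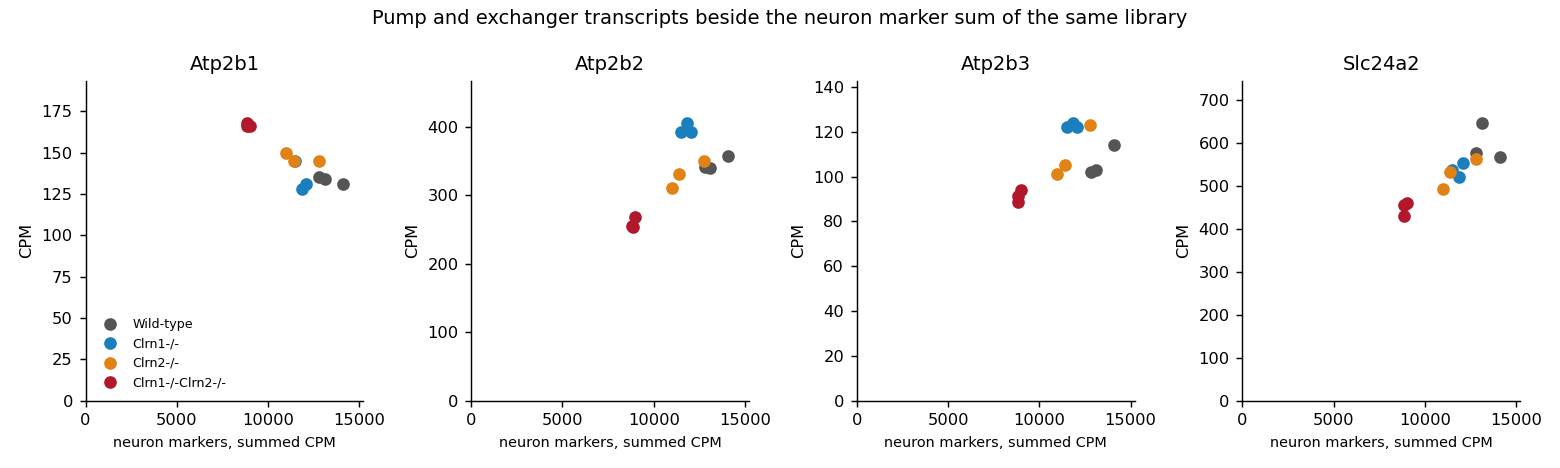
CPM of Atp2b1, Atp2b2, Atp2b3 and Slc24a2 (vertical axes, from 0) against the summed CPM of 14 neuron markers (horizontal axes, from 0) in the 12 libraries, coloured by genotype. The double mutant libraries lie at 8836 to 8996 CPM of neuron markers, with the lowest Atp2b2, Atp2b3 and Slc24a2 and the highest Atp2b1.

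The genes whose log2 CPM ran most closely with that of Atp2b2 over the 12 libraries, among 12444 genes, were Kcna2 (r = 0.984), Plekha2 (r = 0.984) and Sv2c (r = 0.983). Kcna2 encodes a potassium channel of axons and Sv2c a synaptic vesicle protein. Their deviations from the genotype means correlated with those of Atp2b2 at 0.83, 0.73 and 0.82. Kcna2 had a mean of 937 CPM for Wild-type, 1055 for Clrn1-/-, 868 for Clrn2-/- and 713 for double mutant libraries, the same order as Atp2b2. The libraries share their genotype in these correlations, which are descriptions.

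Other genes of calcium clearance were taken from 3 lists. Of the remaining exchangers Slc24a1, Slc24a4, Slc24a5 and Slc8b1, 3 of 4 had enough counts to be tested, and 0 of them passed in any comparison. Slc8b1, the mitochondrial exchanger, was the abundant one at 25.8 to 34.7 CPM, while Slc24a1 did not exceed 0.122 CPM.

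The binding partners of the pumps included 8 genes, among them the basigin family subunits Nptn and Bsg, the calmodulins and the scaffold genes Slc9a3r1 and Slc9a3r2. In the double mutants against Wild-type, 1 of 8 rose and 5 fell, where 37.0% of all genes passed in either direction. The one that rose was Slc9a3r1, which encodes the scaffold NHERF1, at 69.1 to 71.8 CPM in Wild-type and 173 to 185 CPM in the double mutants. It rose by 1.36 on the log2 scale (SE 0.0582, adjusted p = 1.90e-10 in edgeR) and was also above Clrn1-/- (0.91) and Clrn2-/- (0.99). In Clrn1-/- mice 2 rose and 4 fell (26.9% of all genes passed), and in Clrn2-/- mice 2 rose and 1 fell (14.2% of all genes), with 0 called in each.

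Of 6 cytosolic calcium buffers, 3 rose and 3 fell in the double mutants, where 37.0% of all genes passed, and 1 of the rises, Calb1, was just inside the threshold (adjusted p = 0.0499). Ocm, the oncomodulin of outer hair cells, had 62.5 to 76.2 CPM in Wild-type and 122 to 138 in the double mutants, a rise of 0.97 on the log2 scale (SE 0.121, adjusted p = 1.16e-05 in edgeR), and it rose by 0.83 in Clrn2-/- mice (adjusted p = 2.46e-04). S100a1 rose by 0.67 in the double mutants (adjusted p = 3.15e-06), and its interaction term was 0.61 (adjusted p = 9.46e-04). The calcium buffer Calb2, abundant in auditory neurons and inner hair cells, fell by 0.73 (adjusted p = 3.33e-06), from 2806 ± 224 CPM to 1692 ± 99.5 CPM. S100b fell by 0.61 in Clrn1-/- mice (adjusted p = 4.75e-05) and by 0.85 in the double mutants (adjusted p = 6.85e-07). Against Clrn2-/-, Calb1 was higher in the double mutants by 0.65 (SE 0.205, adjusted p = 0.0284), as was S100a1 by 0.60 (adjusted p = 2.64e-05), and S100a1 was higher than in Clrn1-/- by 0.67 (adjusted p = 5.60e-06). In Clrn1-/- mice 1 of the 6 buffers rose and 3 fell (26.9% of all genes passed), and in Clrn2-/- mice 1 rose and 1 fell (14.2% of all genes).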

How the data were processed

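RNA from 12 libraries of organs of Corti, 3 of each genotype by the labels, was analysed. The authors had deposited raw counts per gene and library, for which paired 100-base reads from a stranded kit were aligned with STAR (GRCm38, Gencode M24 genes). The counts in the orientation of the library kit were used, which held 95.2% to 95.6% of stranded counts, and totals not assigned to a gene (13.5% to 15.8%) were left out. Genes were located, and exon lengths taken, by symbol from Gencode M21 of the same build, and start sequences from RefSeq (GRCm38.p6).

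The test was that of edgeR 4.0.16 in R 4.3.3 (filterByExpr with a minimum count of 10, TMM, quasi-likelihood test, all 12 libraries in one fit, Benjamini-Hochberg adjustment over 19052 genes). Calls needed an adjusted p no higher than 0.05 and a 1.5-fold change or more, the thresholds of the study. The scripts were tested on simulated data. Limma-voom 3.58.1, the test of the study, and DESeq2 1.42.0 served as alternatives, with those of scaling, filter, strand, samples and replicate block. All 9 genes are named, of 3 lists of related genes those called (another list is not reported here), and for the pattern search the 3 genes closest to Atp2b2 with a mean of at least 5 CPM. Correlations used log2 CPM with a prior count of 2. The genes and lists, cell type markers included, were chosen with earlier results of these data known.

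Replicate numbers are shared between genotypes by the labels. Deviations from the genotype means over 12453 genes correlated above 0.1 in all 3 same-numbered pairs of Wild-type and Clrn1-/- libraries (0.269, 0.126 and 0.105). No litter or day is stated for a shared number, and the tests reported above used no pairing. The replicate block was an alternative fit over all 4 genotypes. Of the 18 pairs over all genotypes, 7 were above 0.1.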

Additional observations from a re-analysis of the deposited data

Results flagged for a closer look

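The effect of one mutation differed with the genotype at the other gene for 3 of the 9 genes, by the interaction term of edgeR. For Atp2b2 the term was -0.55 on the log2 scale (adjusted p = 5.14e-05): against Wild-type the level was higher in all 3 Clrn1-/- libraries and lower in all 3 double mutant libraries. For Atp2b3 it was -0.47 (adjusted p = 0.00158), with the same directions in the same libraries. For Slc8a1 it was -0.45 (adjusted p = 0.0331), with all 3 double mutant libraries below every other library. A share of the 19052 genes tested, 17.4%, passed the same test.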

How the results depend on the processing

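With 3 libraries a genotype, of 63 log2 fold changes (9 genes in 7 comparisons) 29 passed the test, none of these 29 turned sign, and 23 stayed past the threshold under every alternative run. Of 34 that did not pass, 13 passed under some alternative. Calls were unaffected by limma-voom, DESeq2, the filters, unstranded counts and fitting only the groups compared. Without the fold minimum the counts of genes were 2 in Clrn1-/-, 2 in Clrn2-/- and 8 in the double mutants against Wild-type, 6 in the double mutants against Clrn1-/-, 5 against Clrn2-/-, 3 between the single mutants and 3 for the interaction. Scaling by library size alone gave 1 call for the interaction in place of 0, Atp2b2 at -0.587. Leaving out 1 library gave 0 to 1 calls in Clrn2-/- against Wild-type (Slc8a3 at -0.649 without Clrn2-/- replicate 1), 0 to 1 in the double mutants against Wild-type (Slc24a3 at 0.590 without Wild-type replicate 2) and 0 to 1 for the interaction (Slc8a1 at -0.603 without Wild-type replicate 2, and Atp2b2 at -0.613 without Clrn2-/- replicate 3 or at -0.595 without double mutant replicate 3), and 7 to 9 genes that differed among genotypes. In the fit with the replicate block the calls stayed 0, and 1 for Atp2b2 between the double mutants and Clrn1-/-, and it changed no other call.

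Small differences turned sign, 11 in all, none above 0.103 on the log2 scale in size, with adjusted p from 0.604. For Atp2b4 in Clrn2-/- against Wild-type the values were 0.032 with limma-voom, 0.029 with library size alone, 0.008 with the replicate block, 0.008 with unstranded counts and 0.001 with only the groups compared. Leaving out 1 library, it ranged from -0.179 to 0.151. In the same way Atp2b3 ranged from -0.036 to 0.110 and Slc8a1 from -0.082 to 0.145 in Clrn2-/- against Wild-type. In Clrn1-/- against Wild-type, Atp2b1 ranged from -0.038 to 0.051, Atp2b4 from -0.076 to 0.255 and Slc8a1 from -0.053 to 0.174. Between the single mutants, Slc8a1 ranged from -0.023 to 0.066 and Slc24a2 from -0.034 to 0.055. Slc8a2 ranged from -0.104 to 0.071 between the double mutants and Clrn2-/-. For the interaction, Slc8a2 ranged from -0.027 to 0.148 and Slc24a3 from -0.167 to 0.121. The cause of these changes was not tested.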
